A study of Homo sapiens with 10 samples.

Results

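Oxidative phosphorylation was examined through 90 genes of 19775 on the array, those whose symbols mark them as nuclear-encoded parts of respiratory complexes I to V or of complex I assembly. A gene was taken when at least 1 probe set (a group of short probes for one transcript, summarised to 1 value) named it alone and its symbol began with NDUFA, NDUFB, NDUFC, NDUFS, NDUFV, UQCR, COX4 to COX8 or ATP5, or was SDHA, SDHB, SDHC or SDHD. By role these were 33 subunits of complex I, 3 of complex II, 6 of complex III, 17 genes of complex IV, 18 of complex V, 8 complex I assembly factors of the NDUFAF group and 5 noncoding or pseudogene loci that share a symbol stem (ATP5MC2P1, COX6A1P1, NDUFB2-AS1, NDUFV1-DT and NDUFV2-AS1). No probe set named SDHB, NDUFA4, NDUFA4L2 or UQCRFS1 alone, so these subunits were not among the 90. The rule itself uses symbols and no measured value, but it was set with earlier results of these data known. Of the 90, 85 passed the filter on low values. The 5 that did not were COX7A1, COX8C, ATP5MF, COX6A1P1 and NDUFB2-AS1, which together read between 2.19 and 45.1 on the linear intensity scale of the arrays.

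The samples were 10 total RNA preparations of RWPE-1, a human prostate epithelial line that is immortalised but forms no tumours, each read on 1 Affymetrix expression array (the HG-U133 Plus 2.0 design). All cells had been infected with MSCV retroviral vectors, had been selected as stable clones and grown without further treatment, and carried the biotin ligase BirA. The control cells carried BirA alone (3 arrays, A to C), the ETV1 cells BirA with ETV1 (4 arrays, A to D), and the ERG cells BirA with ERG (3 arrays, A to C). ETV1 and ERG are ETS transcription factors that gene fusions activate in prostate cancer, and the comparisons ask which transcripts differ when each is overexpressed. All groups come from this 1 cell line. The replicates are described as biological, without a statement on whether they were separate clones, so each p-value covers no more than the variation among the arrays at hand.

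The number of arrays limits the precision. Arrays labelled ERG differed from all others in general readings: the median over their probe sets was 48.5 to 52.6, against 71.4 to 73.4 on the control and 70.9 to 75.5 on the ETV1 arrays, and their Spearman correlation with control arrays across probe sets was 0.766 to 0.811, against 0.956 to 0.969 for ETV1 with control. ETV1 transcript was higher on the ETV1 arrays, where the probe set with the largest difference rose from 88.1 ± 29.0 (SD, n = 3) to 1320 ± 355 (n = 4). The label ERG was not settled by its own gene, whose brightest probe set read 186 ± 4.61 (n = 3) on control arrays and 9.43 ± 1.57 (n = 3) on the arrays labelled ERG, while the other 3 had higher means on the arrays labelled ERG: the dimmest read 9.04 ± 3.23 and 36.5 ± 12.3, and the others 25.5 ± 12.5 and 33.5 ± 7.35, and 17.2 ± 3.52 and 26.4 ± 7.76, both with overlapping arrays. Directions drawn from these arrays carry that limit, and they are called the arrays labelled ERG below. Markers of basal prostate epithelium were present in all 3 groups. The summed intensity of 5 basal markers was 17059 to 18604 in control, 23058 to 23835 in ETV1 and 24472 to 25648 in the arrays labelled ERG. Gene by gene, by the calls defined below, 3 of the 5 were higher and none lower in ETV1 cells than in control. On the arrays labelled ERG 1 was higher and 1 lower than control. Against ETV1 cells 1 was higher and 3 were lower there, with a median log2 difference of -0.72, unlike the sum.

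The respiratory chain sits in the inner mitochondrial membrane. Complex I oxidises NADH and complex II oxidises succinate, both pass electrons through ubiquinone to complex III, cytochrome c carries them on to complex IV, which reduces oxygen, and complex V uses the proton gradient so built to make ATP. Apart from complex II, each complex also holds subunits encoded by mitochondrial DNA, and most nuclear-encoded subunits are transcribed as housekeeping genes from promoters without a TATA box. ETS-family sites, bound there by GABP (also called NRF2), together with sites of NRF1 and YY1, are well-known features of these promoters, so promoter letters are shown first, since the study expressed ETS factors.

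RefSeq promoter windows of GRCh38.p14, from 250 bases before to 50 after each annotated start, were matched by symbol for 73 protein-coding genes of the set (91 windows). The ETS core CCGGAAG, read on both strands, was found in 25.3% of these windows, against 15.6% of 16283 windows of all tested genes and 10.3% of all 35116 windows. The NRF1 core GCANGCGC was in 34.1% of the set's windows, against 17.3% and 11.7%, and the YY1 core AANATGGC in 30.8%, against 8.69% and 6.58%. A match of one motif does not require a match of another. One promoter per complex is printed, chosen among tested genes with an ETS match wholly within the 150 bases before the start. Of these, the gene with the lowest log2 difference between ETV1 cells and control was taken. Both the nearness of the match to the start and the low ETV1 reading were therefore set by the choice. Each stretch is the 150 bases before the start, 5′ to 3′ on the strand of the gene, and capitals mark CCGGAAG or its reverse complement.
NDUFA13 (complex I, chr19:19516075-19516224, + strand): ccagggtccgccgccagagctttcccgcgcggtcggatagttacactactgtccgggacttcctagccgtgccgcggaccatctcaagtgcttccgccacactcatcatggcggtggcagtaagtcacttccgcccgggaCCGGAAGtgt
SDHD (complex II, chr11:112086723-112086872, + strand): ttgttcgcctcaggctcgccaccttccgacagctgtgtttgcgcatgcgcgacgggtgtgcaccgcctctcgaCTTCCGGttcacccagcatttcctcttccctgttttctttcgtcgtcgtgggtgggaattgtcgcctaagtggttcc
UQCR11 (complex III, chr19:1605463-1605612, - strand): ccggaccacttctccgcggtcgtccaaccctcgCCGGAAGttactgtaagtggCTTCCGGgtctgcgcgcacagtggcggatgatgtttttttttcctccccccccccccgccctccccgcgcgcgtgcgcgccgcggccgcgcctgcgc
COX6B1 (complex IV, chr19:35648173-35648322, + strand): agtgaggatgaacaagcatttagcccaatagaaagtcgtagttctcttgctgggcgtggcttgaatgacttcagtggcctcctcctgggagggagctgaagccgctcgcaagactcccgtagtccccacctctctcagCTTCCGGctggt
ATP5PF (complex V, chr21:25735055-25735204, - strand): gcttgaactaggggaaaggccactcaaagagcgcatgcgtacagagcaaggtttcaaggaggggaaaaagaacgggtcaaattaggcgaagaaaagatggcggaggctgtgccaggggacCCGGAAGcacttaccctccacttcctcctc

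The first letter of the match lay 10 bases before the start in NDUFA13, 77 in SDHD, 12 in COX6B1 and 30 in ATP5PF, and the promoter of UQCR11 held a pair of matches at 117 and 97 bases before its start, 1 on each strand. These are letter matches and no measured binding. Genes that were lower in ETV1 cells held the ETS core in 11 of the 29 with a window (37.9%), and genes that did not pass in 9 of 41 (21.95%). Of the 2 genes higher in ETV1 cells ATP5ME held it and NDUFAF1 did not. For NRF1 the same shares ran the other way, 9 of 29 (31.0%) and 18 of 41 (43.9%), and for YY1 they were 11 of 29 (37.9%) and 14 of 41 (34.1%). Counted by gene in the same way, 2322 of 11293 tested genes with a window held the ETS core, 2582 the NRF1 core and 1326 the YY1 core. These are the counts to set beside the shares by gene, since the shares of all tested genes given above are by window. No difference between these shares was tested.

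In ETV1 cells, transcripts of complexes I, III, IV and V were lower for part of their subunits as deposited. Complex II passed for none of its 3 tested genes as deposited, and a single subunit, ATP5ME of complex V, was higher. Complex III had no lower gene under quantile normalization or centring on the brightest 20%, scalings described below. Over the set as deposited, 33 genes were lower and 2 higher, which is 38.8% and 2.35% of the 85 tested. Over all 14045 tested genes 15.9% were lower and 9.36% higher, and among the brightest 20% of tested genes, where 72 of the 85 lie, 28.9% were lower and 8.01% higher. The median log2 difference was -0.34 in the set, -0.21 in the brightest 20% and -0.06 over all tested genes. Control array A read above and control array C below the control mean for most of the set (medians 0.19 and -0.21), as they did over all tested genes (0.14 and -0.18), and the count of lower genes followed them: it was 16 without control array A, 20 without control array B and 52 without control array C. Among the lower genes named below, UQCR11, UQCRQ, COX7B2, NDUFA3 and ATP5PB missed the threshold without control array A and also without control array B (adjusted p 0.058 to 0.195), ATP5F1A missed it without control array A (0.054), and UQCRQ missed it when any 1 of the ETV1 arrays was left out (0.071 to 0.11). UQCR11 and NDUFA3 also missed it without ETV1 array A or C, and NDUFA3 without ETV1 array D (0.052 to 0.083). In turn, without control array C the genes SDHC, UQCRC2, NDUFV1, COX7A2L, ATP5F1B and ATP5IF1 passed as lower (-0.48 to -0.39), and NDUFA7 passed as higher without control array A (0.54) or ETV1 array D (0.49). Of the 33 lower genes, ATP5MC2 was the one whose groups overlapped, a count that was not made for all tested genes. In bulk RNA, fewer cells of a type and less RNA per cell cannot be told apart. Calls are from limma at an adjusted p (Benjamini-Hochberg, every tested gene entering) under 0.05, on log2(intensity + 16).

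**Figure D1:**
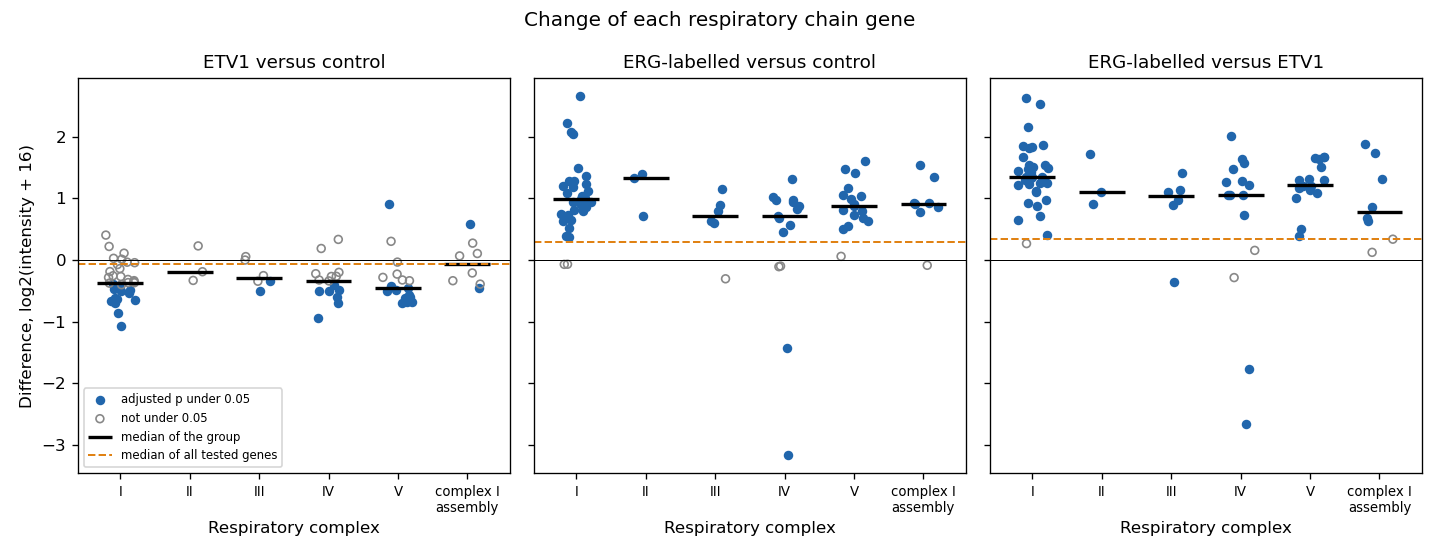
Difference in log2(intensity + 16) for each of the 82 tested protein-coding genes, by complex, in the 3 comparisons, with filled points for genes that passed, black bars for the median of each group and a dashed line for the median of all 14045 tested genes. Medians of complexes I to V lay between -0.45 and -0.19 in ETV1 versus control and between 0.71 and 1.32 for the arrays labelled ERG versus control, as deposited, and kept these signs under the 4 other scalings tried, while that of the assembly factors in ETV1 cells, at -0.07, was above 0 under quantile normalization and under centring on the brightest 20%.

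**Figure D2:**
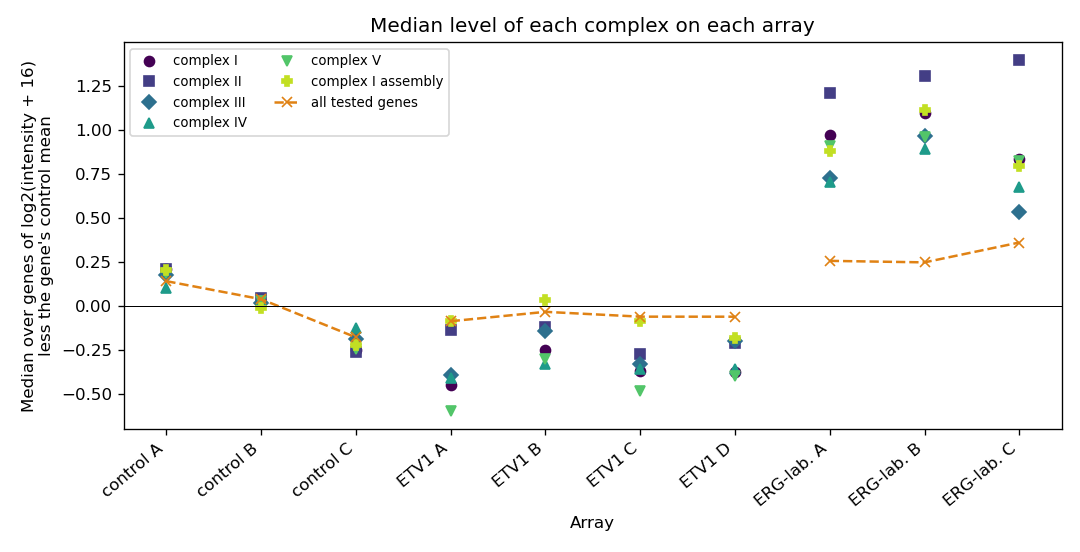
Median over the genes of each complex of log2(intensity + 16) less each gene's control mean, on every array as deposited, beside the same median over all tested genes (dashed). On the ETV1 arrays the medians of complexes I to V were -0.60 to -0.12 as deposited, and on the arrays labelled ERG 0.53 to 1.40, where all tested genes were at 0.25 to 0.36; under centring on the brightest 20%, complexes II and III had both signs among the ETV1 arrays and complexes III and IV among the arrays labelled ERG.

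Complex I, the entry point for NADH, had 13 of its 33 genes lower in ETV1 cells and none higher, with a median of -0.37. All 13 were accessory subunits, which surround the catalytic centre, out of 28 tested. Of the 5 core subunits tested, some of which carry the flavin or iron-sulfur clusters, none passed (NDUFS1, NDUFS3, NDUFS7, NDUFV1 and NDUFV2, -0.40 to -0.04, adjusted p 0.052 to 0.89). NDUFA9, which steadies the joint between the membrane and matrix arms, read 1585, 1549.9 and 1154 on control arrays A to C and 657, 737, 730.3 and 546 on ETV1 arrays A to D. Every ETV1 array was less than the lowest control array, and the log2 difference was -1.08 (SE 0.15, adjusted p = 5.3e-05). NDUFA2, a thioredoxin-fold subunit of the matrix arm, read 4632, 4359 and 3898 in control and 2293, 2428, 2153 and 2568 in ETV1 cells, again without overlap, a difference of -0.86 (SE 0.13, adjusted p = 1.2e-04). NDUFAB1, the mitochondrial acyl carrier protein, read 7543, 6889.5 and 6455 in control and 4186, 4464, 4119 and 4312 in ETV1 cells, a difference of -0.70 (SE 0.12, adjusted p = 4.2e-04). The other 10 lower subunits were NDUFA1, NDUFA3, NDUFA13, NDUFB1, NDUFB3, NDUFB4, NDUFB9, NDUFB10, NDUFB11 and NDUFS4, with differences of -0.67 to -0.39. Among subunits that did not pass, NDUFS1, the largest subunit and a carrier of iron-sulfur clusters, read 1084, 1093 and 743 in control and 942, 1020.0, 915 and 869.6 in ETV1 cells (difference -0.04, adjusted p = 0.89), and NDUFA7 had the highest estimate at 0.40 (adjusted p = 0.081).

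Complex II, which also serves the citric acid cycle, had no gene past the threshold in ETV1 cells as deposited. SDHA, its flavoprotein, read 1945, 1787 and 1489 on control and 1795, 2331, 2164 and 1872 on ETV1 arrays, with overlapping groups and a difference of 0.23 (SE 0.14, adjusted p = 0.27). SDHA passed as higher under quantile normalization (0.39, adjusted p = 0.0070), centring on the brightest 20% (0.40, adjusted p = 0.012) and array weights (0.22, adjusted p = 0.027), and with array weights SDHC and SDHD passed as lower (-0.39 and -0.27). SDHC and SDHD, which anchor the complex in the membrane, differed by -0.33 (SE 0.14, adjusted p = 0.11) and -0.19 (SE 0.13, adjusted p = 0.33). In complex III, 2 of 6 genes were lower. UQCR11, a small subunit of the complex, read 5239, 4689 and 4032 in control and 3155, 3293, 3009 and 3550.2 in ETV1 cells, without overlap (difference -0.51, SE 0.15, adjusted p = 0.021). UQCRQ, another small subunit, read 8892, 8729 and 8738 in control and 6987, 7326, 6961 and 6478 in ETV1 cells, also apart, with -0.34 (SE 0.12, adjusted p = 0.047). UQCRC1, a core protein of the matrix side, read 4253, 3991 and 3604 in control and 3812, 4277, 3982 and 4329.9 in ETV1 cells, groups that overlapped (difference 0.06, adjusted p = 0.81).

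Complex IV, cytochrome c oxidase, had 7 of 15 tested genes lower in ETV1 cells, 6 of them among the 10 subunits of the common form. COX6B1, which faces the intermembrane space and helps join the dimer, read 6013, 5812 and 5192 in control and 2739, 2954, 2653 and 3419.7 in ETV1 cells. The 4 ETV1 arrays lay far under the control arrays, with a difference of -0.95 (SE 0.14, adjusted p = 9.7e-05). COX7B read 5369, 4949 and 4248 in control and 2869, 3088, 2764 and 3239 in ETV1 cells, a difference of -0.69 (SE 0.14, adjusted p = 0.0021). COX7A2, a subunit with a muscle and a ubiquitous form, of which this is the ubiquitous, read 6024, 5852 and 5286 in control and 3634, 3959.6, 3731 and 3755 in ETV1 cells, a difference of -0.60 (SE 0.13, adjusted p = 0.0024). COX5B, COX6C and COX8A were lower as well, with differences of -0.50, -0.40 and -0.49. A dim probe set of COX5B went the other way, from 287 to 393 in the group means (0.45, adjusted p over all probe sets = 0.047). COX4I1, the common form of the regulatory subunit 4, read 9034, 9214 and 9502 in control and 7276, 7978, 7706 and 7792 in ETV1 cells. The groups did not overlap, and the difference of -0.27 did not pass (adjusted p = 0.11). COX7A2L, a factor for respiratory supercomplexes, differed by -0.32 (adjusted p = 0.096). Of the isoforms restricted to other tissues, COX7B2 was lower, from 278, 256 and 211 to 156, 165, 167 and 191 (-0.51, SE 0.14, adjusted p = 0.014), and COX6B2, known from testis, read 221, 227 and 242 in control and 337, 293, 276 and 273 in ETV1 cells with every ETV1 array above control (difference 0.33, adjusted p = 0.11).

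Complex V, ATP synthase, had 10 of 17 tested genes lower and 1 higher in ETV1 cells, and its median of -0.45 was the lowest among the 5 complexes. Of the 11 tested genes for the peripheral stalk and the membrane part 9 were lower and 1 higher, and of the 5 for F1, the catalytic head with the central stalk, only ATP5F1A was lower. Of the other 4 F1 genes, ATP5F1D had a positive estimate (0.30, adjusted p = 0.20) and ATP5F1B, ATP5F1C and ATP5F1E had estimates of -0.34 to -0.23. ATP5MG, subunit g of the membrane part, read 7645, 7474 and 7210.4 in control and 4361, 4928, 4577 and 4525 in ETV1 cells, a difference of -0.69 (SE 0.12, adjusted p = 4.4e-04). ATP5MJ and ATP5MK, small membrane subunits, were lower, with a difference of -0.68 each (adjusted p = 0.0012 and 9.4e-04). ATP5ME, subunit e, which pairs with subunit g where ATP synthase forms dimers, went the other way: it read 1985, 1770.4 and 1345 on control and 2958, 3422, 2998 and 3246 on ETV1 arrays. All 4 ETV1 arrays were above the control arrays, with a difference of 0.90 (SE 0.15, adjusted p = 3.4e-04), which stayed between 0.74 and 1.09 with adjusted p at most 0.00185 under the main setting and each alternative that could be computed for it. The 2 probe sets of ATP5ME both rose in ETV1 cells, the dimmer one by 0.80 (adjusted p over all probe sets = 0.0028), and both carry the mark of cross-matching to other transcripts. Among the F1 subunits ATP5F1A, the alpha subunit, read 4699, 4295 and 3445 in control and 2351, 3032, 2793 and 2956 in ETV1 cells (-0.57, SE 0.15, adjusted p = 0.0088). The catalytic beta subunit ATP5F1B read 8204, 7706 and 6830.0 in control and 5176, 6562, 5887 and 6410.1 in ETV1 cells, apart but not past the threshold (-0.34, SE 0.13, adjusted p = 0.075). ATP5IF1, the inhibitor that blocks ATP hydrolysis, differed by -0.32 (adjusted p = 0.071).

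Of the 8 NDUFAF assembly factors, which help build complex I and are no part of the finished enzyme, NDUFAF1 was higher and NDUFAF6 lower in ETV1 cells. NDUFAF1 read 494, 391 and 316 in control and 576, 616, 577 and 618 in ETV1 cells, without overlap (0.58, SE 0.16, adjusted p = 0.011). NDUFAF6 read 521, 444 and 384 in control and 337, 326, 303 and 322 in ETV1 cells (-0.45, SE 0.15, adjusted p = 0.031). The 3 tested noncoding or pseudogene loci differed by -0.39 to -0.29 and none passed.

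**Figure D3:**
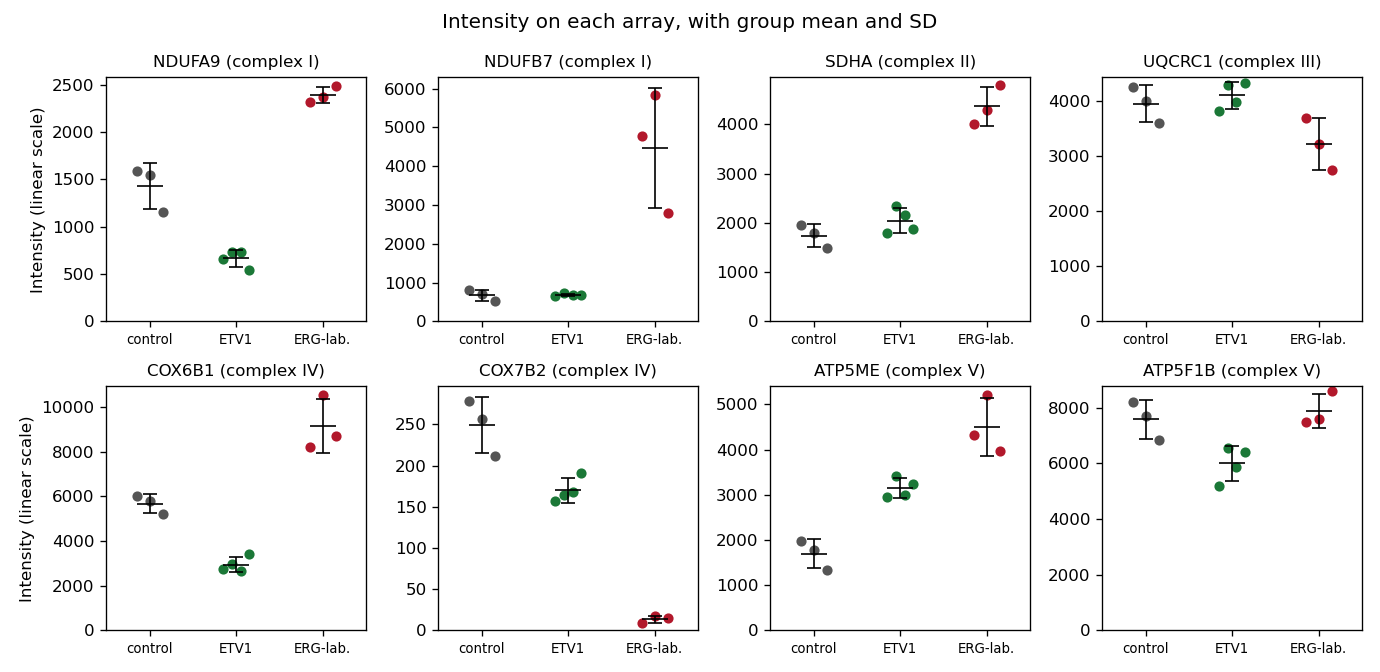
Intensity on each array, on linear axes that start at 0, for 8 genes of the set, with the group mean (horizontal mark) and SD (bars). As deposited, NDUFA9 and COX6B1 were lower in ETV1 and higher on the arrays labelled ERG, ATP5ME was higher in both, COX7B2 fell to 8.99 to 16.9 on the arrays labelled ERG, and UQCRC1 and ATP5F1B did not pass between the arrays labelled ERG and control.

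On the arrays labelled ERG, most of the set was higher than in control cells: 74 of 85 genes were higher and 3 lower, 87.1% and 3.53%. Over all tested genes 47.7% were higher and 32.2% lower, and among the brightest 20% of tested genes 69.3% were higher and 8.97% lower. The filter asked for 3 arrays of any group, so the arrays labelled ERG could admit a gene alone. Without 1 of them, 13299 to 13315 genes were tested, of which 42.6% to 44.0% were higher and 33.5% to 35.3% lower. Of the set 84 genes were then tested, with 71 to 73 higher and 2 to 3 lower. The median difference was 0.88 in the set, 0.64 in the brightest 20% and 0.29 over all tested genes. Beside this stand readings that moved the same way on these arrays. The transcripts bioB, bioC, bioD and cre, added to each sample in fixed amount as hybridisation controls, read 1085, 2397, 9056 and 23105 in the mean on the arrays labelled ERG, and 616, 1361, 5663 and 11748 on the control arrays, with no overlap for any of the 4. On the ETV1 arrays their means were 563, 1178, 4857 and 12194, and all 4 overlapped control. For ACTB, the probe set near the 3 prime end read more than that near the 5 prime end, which depends on how intact the RNA was and how far it was copied, by a ratio of 2.75 to 3.07, against 1.35 to 1.40 on control and 1.24 to 1.30 on ETV1 arrays, while that of GAPDH was 0.946 to 1.04, against 0.893 to 0.931 and 0.994 to 1.05. Their part in the result was not tested.

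Complex I had 31 of 33 genes higher and none lower on the arrays labelled ERG, with a median of 0.996. NDUFB7, an accessory subunit of the membrane arm on the side of the intermembrane space, read 800.2, 710.1 and 519 on control and 4792, 5836 and 2789 on the arrays labelled ERG. Its 3 arrays were spread widely and all lay above control, with a difference of 2.65 (SE 0.22, adjusted p = 9.0e-09). NDUFA7 read 868, 798 and 539 in control and 3353, 3666 and 3260.0 on the arrays labelled ERG (2.22, SE 0.17, adjusted p = 5.4e-09). NDUFA5 read 1099, 925 and 770.5 in control and 3888, 4439 and 3582 on the arrays labelled ERG (2.08, SE 0.15, adjusted p = 2.7e-09). Both are subunits of the matrix arm. NDUFA3, a small subunit, was higher by 2.04. The 5 core subunits tested were all higher, by 0.37 to 1.21: NDUFS1 read 2001, 1927 and 2255 (1.09, SE 0.16, adjusted p = 7.3e-06), and NDUFV1, which binds NADH and the flavin, read 2861, 2463 and 2036 in control and 3127, 3228 and 3113 (0.37, SE 0.15, adjusted p = 0.027), a call that was lost without control array B or C or array A or B labelled ERG (adjusted p 0.051 to 0.10) and turned to -0.24 and -0.28 under quantile normalization and centring on the brightest 20%. NDUFA2, lower in ETV1 cells, was higher here at 0.38, missed the threshold without array B labelled ERG (adjusted p = 0.060), and turned to -0.23 and -0.27 under quantile normalization and centring on the brightest 20%. NDUFA10 and NDUFB10 did not pass, both at -0.07 with adjusted p of 0.67 and 0.62.

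All 3 tested genes of complex II were higher on the arrays labelled ERG as deposited, each read from its brightest probe set. SDHA read 4011, 4293 and 4789, more than 2 times its control level on average (ratio 2.51), a difference of 1.32 (SE 0.15, adjusted p = 4.8e-07). SDHC read 1386, 1081 and 892 in control and 2889, 2906 and 2924 on the arrays labelled ERG (1.39, SE 0.15, adjusted p = 3.6e-07). Further probe sets of SDHC fell. The mean of its probe sets differed by -0.06 (adjusted p = 0.63). With only probe sets that lack a mark of matching several transcripts, SDHC passed as lower (-1.59). SDHD read 3706, 3326 and 2668 in control and 5304, 5404 and 5169 on the arrays labelled ERG (0.72, SE 0.14, adjusted p = 1.9e-04). The call of SDHD was lost under quantile normalization (0.09, adjusted p = 0.38) and centring on the brightest 20% (0.07, adjusted p = 0.55). In complex III 5 of 6 genes were higher. UQCRC2, a core protein, read 3243, 2851 and 2160.3 in control and 5650.2, 5857 and 6667 on the arrays labelled ERG (1.15, SE 0.17, adjusted p = 7.0e-06). UQCR10 and UQCRB, small subunits, were higher by 0.90 and 0.80. UQCRC1, the partner of UQCRC2 in the core of the complex, stood apart from it: it read 4253, 3991 and 3604 in control and 3679, 3214 and 2738 on the arrays labelled ERG, with overlapping groups and a difference of -0.30 (SE 0.14, adjusted p = 0.060). This did not pass as deposited, and passed as lower under quantile normalization (-0.90), under centring on the tested genes (-0.46) or the brightest 20% (-0.96), and without control array C (-0.37) or array A labelled ERG (-0.41).

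In complex IV, all 10 subunits of the common form were higher on the arrays labelled ERG as deposited, by 0.46 to 1.32 (COX4I1 and COX8A turned to -0.20 and -0.08 under centring on the brightest 20%), and none of the 4 tested isoforms of other tissues was as deposited, with 2 of them lower. These 4 lie in the dimmer 2 of 5 equal parts of the tested genes by brightness, where 53.2% and 49.6% of all genes were lower and 33.6% and 31.7% higher, so their count is near that of dim genes at large. COX7B read 11519, 14641 and 10371, against 5369, 4949 and 4248 in control (1.32, SE 0.15, adjusted p = 6.2e-07). COX5A, which carries no metal centre and lines the matrix side, read 5858, 5245 and 4555 in control and 10713, 10267 and 10715 on the arrays labelled ERG (1.02, SE 0.14, adjusted p = 4.3e-06). COX7A2 was higher by 0.97, COX7A2L by 0.95 and COX4I1 by 0.46, the last from 9034, 9214 and 9502 to 12511, 13549.7 and 12073. COX7B2, the paralogue of COX7B, fell from 278, 256 and 211 to 8.99, 16.9 and 14.9, the largest fall in the set (-3.16, SE 0.15, adjusted p = 1.5e-11). COX6B2, the paralogue of COX6B1, fell from 221, 227 and 242 to 59.2, 97.3 and 72.7 (-1.43, SE 0.16, adjusted p = 2.7e-07). Both passed as lower under each alternative in which they were tested. COX4I2, the isoform known from lung and hypoxia, read 65.9, 70.9 and 60.7 in control, 70.9, 87.3, 83.9 and 67.4 in ETV1 cells and 62.3, 52.9 and 66.5 on the arrays labelled ERG, with no call in any comparison as deposited. The call of COX4I2 depended on the scaling: in ERG versus control it passed as higher under quantile normalization and under centring on the median of all probe sets (0.31 each) and as lower under centring on the brightest 20% (-0.75). Centring on the brightest 20% also made it higher in ETV1 cells (0.36). In ERG versus ETV1 it passed as lower without control array C (-0.29), ETV1 array D (-0.34) or array C labelled ERG (-0.34), under centring on the tested genes (-0.47) or the brightest 20% (-1.11), and with array weights (-0.33), a pseudocount of 1 (-0.35) or the mean of all probe sets (-0.29, with an adjusted p of 0.034). COX7A1, the muscle form, was not tested and read 2.19 to 32.7 over all arrays.

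Complex V had 16 of 17 tested genes higher on the arrays labelled ERG. ATP5PD, subunit d of the peripheral stalk, read 4117, 3668 and 2823 in control and 9963, 11699.9 and 10324 (1.60, SE 0.16, adjusted p = 9.1e-08). ATP5F1D, the delta subunit of the central stalk, read 1146, 1036 and 758 in control and 3197, 2983 and 2105 on the arrays labelled ERG (1.48, SE 0.18, adjusted p = 7.3e-07). ATP5ME read 4327, 5211 and 3962 and was higher than in control here as well (1.40, SE 0.16, adjusted p = 4.7e-07). ATP5IF1 was higher by 0.87. The exception was ATP5F1B, which read 8204, 7706 and 6830.0 in control and 7481, 7587 and 8602 on the arrays labelled ERG. The groups overlapped, with a difference of 0.06 (SE 0.14, adjusted p = 0.71), while its partner in the catalytic ring, ATP5F1A, rose by 0.73 as deposited, from 4699, 4295 and 3445 to 6626, 6239.5 and 7702. That call was lost under quantile normalization (0.14, adjusted p = 0.27), centring on the brightest 20% (0.07, adjusted p = 0.58) and the mean of all probe sets (0.18, adjusted p = 0.18). The level of ATP5F1B against other genes depended on the scaling: it passed as lower under quantile normalization (-0.49) and centring on the brightest 20% (-0.60), and as higher under centring on the median of all probe sets (0.47).

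Of the NDUFAF assembly factors 7 of 8 were higher on the arrays labelled ERG, with NDUFAF2 (1.54) and NDUFAF4 (1.35) leading, and NDUFAF7 read 555, 575 and 461 in control and 464, 551 and 478 on the arrays labelled ERG (-0.09, adjusted p = 0.58). Of the 3 tested noncoding or pseudogene loci, NDUFV1-DT was higher (0.71) and NDUFV2-AS1 lower (-0.33, adjusted p = 0.037, and 0.02 without a call under quantile normalization). All genes of the set that passed in this comparison were separated from control without overlap between arrays. Overlap was not counted over all tested genes, so this does not set them apart from other genes that passed.

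Set against each other, the arrays labelled ERG were higher than the ETV1 arrays for 76 of 85 genes and lower for 3 (COX7B2, COX6B2 and UQCRC1), 89.4% and 3.53%. Over all tested genes 50.4% were higher and 33.2% lower, and in the brightest 20% 74.9% were higher and 8.97% lower. Both groups share the control arrays in the comparisons above. The control arrays enter this comparison only through the filter, the choice of the brightest probe set and the spread, which the model shares over the 3 groups. Its median was 1.22 in the set, against 0.35 over all tested genes. NDUFB7 (2.63), NDUFA3 (2.53) and NDUFA5 (2.16) in complex I, COX7B (2.01), COX6B1 (1.63) and COX7A2 (1.57) in complex IV, and ATP5MK, ATP5PB and ATP5PF (1.67, 1.67 and 1.65) in complex V led the differences. COX7B read 2869, 3088, 2764 and 3239 on the ETV1 arrays and 11519, 14641 and 10371 on the arrays labelled ERG. ATP5MK read 5621, 6532, 5796 and 5232 in ETV1 cells and 18258, 20059.5 and 16999 on the arrays labelled ERG. ATP5PF, whose promoter letters are printed above, read 2825, 3146, 2851 and 2965 in ETV1 cells and 9549, 10199.7 and 8118 on the arrays labelled ERG (1.65, SE 0.14, adjusted p = 7.7e-09). UQCRC1 was the exception of complex III, at -0.36 (SE 0.13, adjusted p = 0.020), with no call under centring on the median of all probe sets (0.07, adjusted p = 0.63), without ETV1 array B (-0.34, adjusted p = 0.050), without array C labelled ERG (-0.25, adjusted p = 0.096), with array weights (-0.21, adjusted p = 0.062) or with the replicate block (-0.33, adjusted p = 0.057). ATP5ME, raised in both groups against control, differed by 0.50 as deposited, and by -0.31 and -0.32 under quantile normalization and centring on the brightest 20%.

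Many genes of the set have several probe sets, and these did not always go one way. Over all 149 tested probe sets of the set, 6 were higher and 46 lower in ETV1 cells, where 10.4% of all probe sets were higher and 13.1% lower. On the arrays labelled ERG 108 were higher and 19 lower than control, beside 43.3% and 35.1% of all probe sets. Of 29 genes with at least 2 passing probe sets in that comparison, 17 had all of them in the same direction and 12 had probe sets in opposite directions (ATP5F1C, ATP5IF1, ATP5MC2, ATP5PO, COX5B, NDUFA2, NDUFB2, NDUFB4, NDUFS1, SDHC, UQCRB and UQCRC2). Except in ATP5PO, the lower probe sets read at most 691 on control arrays (group means), and the brightest probe set of the gene was higher. In SDHC, the probe set that stands for the gene rose from 1120 to 2907 (group means), while probe sets at 449 and 172 in control fell to 138 and 38.9. In ATP5PO one of the lower probe sets was bright: it fell from 3218 to 1437, while the probe set that stands for the gene rose from 4623 to 9376. With only the probe sets that lack a mark of matching several transcripts, 64 genes were tested, of which 39 were higher and 10 lower on the arrays labelled ERG and 3 higher and 16 lower in ETV1 cells, both against control. SDHC (-1.59), NDUFA2 (-1.24), ATP5IF1 (-1.08) and UQCRB (-0.60) were then lower on the arrays labelled ERG and passed. In ETV1 versus control NDUFA2 (-0.11), UQCR11 (-0.06), UQCRQ (-0.34), ATP5MG (-0.21) and ATP5PB (-0.004) then lost their calls (adjusted p 0.055 to 0.99). In ERG versus control so did UQCR10 (0.07), COX4I1 (0.07), ATP5PD (0.06) and ATP5PB (0.09), with adjusted p of 0.59 to 0.75, and UQCR11 (-0.15) and COX5A (-0.14), whose sign turned.

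**Figure D4:**
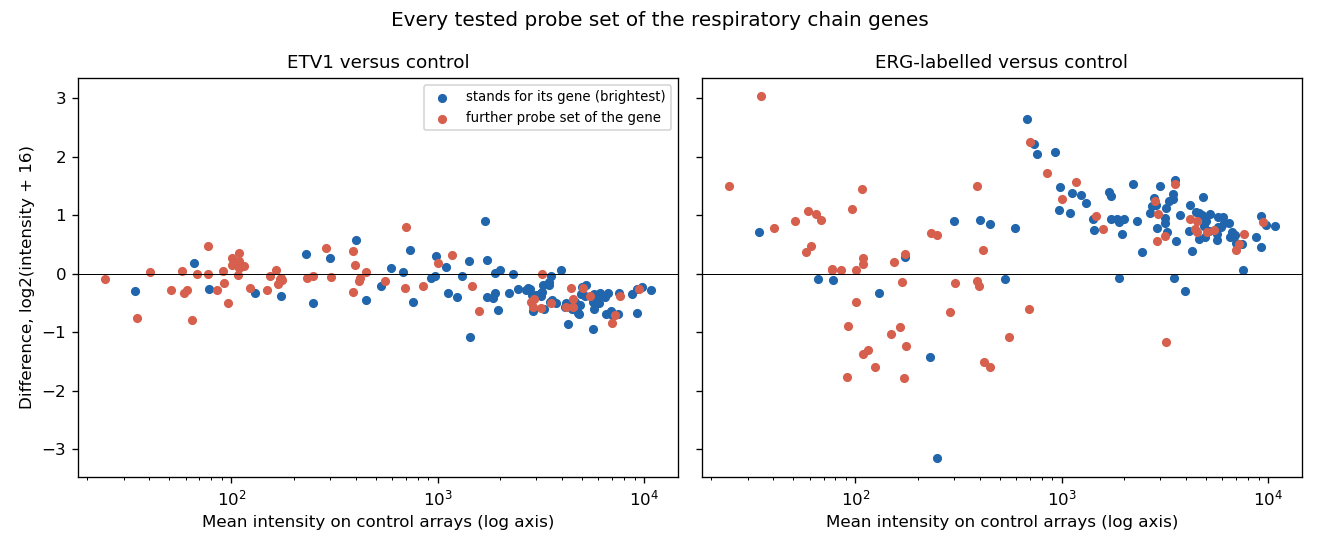
Difference in log2(intensity + 16) of all 149 tested probe sets of the set against their mean intensity on control arrays (log axis), in ETV1 versus control (left) and the arrays labelled ERG versus control (right), with the brightest probe set of each gene in blue and further ones in red. On the right, 82 of the 86 points above an intensity of 1000 lie above 0 as deposited, a probe set of ATP5PO at 3218 being among the exceptions, and the dimmer ones lie on both sides.

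How the arrays were brought to one scale decided how many genes passed. Besides the values as deposited, arrays were centred on the median of all probe sets, of the tested genes or of the brightest 20%, or quantile normalized, which makes 5 scalings; the centring on tested genes and on the brightest 20% was chosen after the data had been seen. For the arrays labelled ERG against control, the median difference over all tested genes was 0.29 as deposited, 0.70, 0.14 and -0.36 under the 3 centrings and 0.05 after quantile normalization. That of the set was 0.88, 1.29, 0.73, 0.23 and 0.34 in the same order. The set's calls were 74 higher and 3 lower as deposited, 36 and 12 on the brightest 20%, and 52 and 8 after quantile normalization. For ETV1 against control the set's median was -0.34 as deposited and -0.16 on the brightest 20%, where all tested genes moved from -0.06 to 0.11, and its calls were 2 higher and 33 lower as deposited and 8 and 22 on the brightest 20%. None of these 35 calls in ETV1 cells had the opposite sign under another scaling. Of the 74 higher genes of the arrays labelled ERG, 12 had a difference below 0 on the brightest 20% (ATP5MC2, ATP5MG, ATP5MJ, COX4I1, COX8A, NDUFA2, NDUFA12, NDUFAB1, NDUFB9, NDUFV1, UQCR11 and UQCRQ, -0.28 to -0.001), and 5 of them also after quantile normalization. Of the genes described above, NDUFA9, SDHD, UQCRB, COX6B1 and ATP5F1A kept a positive difference but lost their ERG versus control calls under both of these scalings, and UQCR10 and ATP5IF1 on the brightest 20%. In ETV1 versus control UQCR11 and UQCRQ lost their calls under both, and NDUFA3 and COX7B2 on the brightest 20%, while NDUFA7, SDHA and ATP5F1D passed as higher under both and COX6B2 on the brightest 20%. The share of higher genes among all genes that passed moved with the scaling, from 37.0% to 65.2% in ETV1 versus control on the brightest 20%. In ERG versus control it moved from 59.7% to 31.2% there, and to 71.1% when centred on all probe sets. Among the genes of the set that passed it moved from 5.71% to 26.7% and from 96.1% to 75% on the brightest 20%. Against the ETV1 arrays these shares were 60.3% as deposited, 29.5% on the brightest 20% and 70.9% on all probe sets, and 96.2% and 81.8% in the set as deposited and on the brightest 20%.

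**Figure D5:**
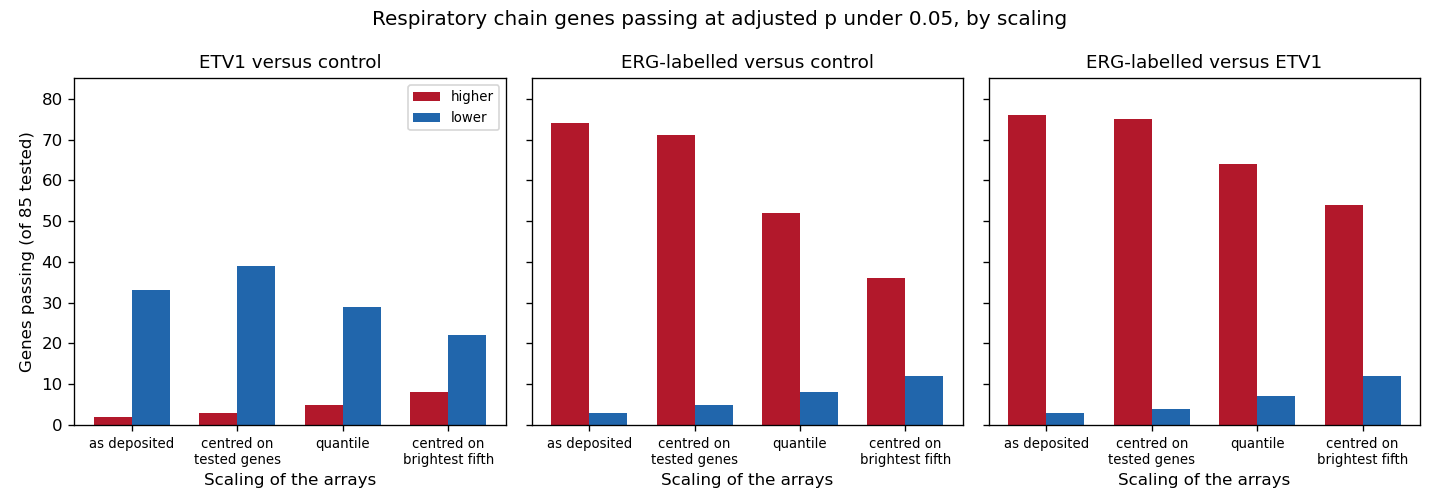
Number of the 85 tested genes of the set that passed as higher (red) or lower (blue) in each comparison under 4 of the scalings. In ETV1 versus control 33, 39, 29 and 22 genes were lower, and for the arrays labelled ERG versus control 74, 71, 52 and 36 were higher, from left to right.

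Some genes passed in the same direction under all 5 scalings. In ETV1 cells these were 22 lower genes, 25.9% of the set, where 9.79% of all tested genes and 20.9% of the brightest 20% were lower under all 5: ATP5F1A, ATP5MC1, ATP5MC2, ATP5MG, ATP5MJ, ATP5MK, ATP5PB, ATP5PF and ATP5PO of complex V, COX5B, COX6B1, COX7A2, COX7B and COX8A of complex IV, and NDUFA2, NDUFA9, NDUFAB1, NDUFB1, NDUFB3, NDUFB4, NDUFB9 and NDUFB10 of complex I. ATP5ME and NDUFAF1 were higher under all 5, beside 8.58% of all tested genes. On the arrays labelled ERG 36 genes were higher than control under all 5, 42.4% of the set beside 22.7% of all tested genes and 29.5% of the brightest 20%. They included 19 complex I subunits, among them NDUFS1, NDUFS3, NDUFS7 and NDUFV2 of the core, SDHA and SDHC, UQCRC2, 5 genes of complex IV, 7 of complex V, and NDUFAF2 and NDUFAF4. All 5 scalings read each gene from its brightest probe set, so they do not cover probe sets that went the other way, as in SDHC. COX6B2 and COX7B2 were lower under all 5, as were 24.5% of all tested genes. Against ETV1 cells 54 genes (63.5%) were higher under all 5, beside 22.9% of all tested genes and 34.6% of the brightest 20%, and again COX6B2 and COX7B2 lower, beside 25.2%.

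Genes of the respiratory chain outside the symbol rule were read the same way, from lists made for their roles. The shares to set beside their counts are those of all tested genes (9.36% higher and 15.9% lower in ETV1 cells, 47.7% and 32.2% on the arrays labelled ERG) and of the brightest 20% (8.01% and 28.9%, 69.3% and 8.97%). CYC1, cytochrome c1 of complex III, read 6465, 6187 and 5567 in control, 3811, 4164, 3881 and 3335 in ETV1 cells and 9197, 9338 and 8094 on the arrays labelled ERG. It was lower in ETV1 cells (-0.68, SE 0.13, adjusted p = 0.0011) and higher on the arrays labelled ERG (0.55, SE 0.14, adjusted p = 0.0016). CYCS, somatic cytochrome c, had a mean of 7945 in control and 7694 in ETV1 cells (-0.04, adjusted p = 0.84) and was higher on the arrays labelled ERG, at 12592 (0.67). Of 39 assembly factors of the complexes, 1 was higher and 8 lower in ETV1 cells, led by TMEM70 of complex V (-0.89) and PET100 of complex IV (-0.77), and 28 were higher and 4 lower on the arrays labelled ERG, led by COA5 (2.47) and SDHAF3 (1.88) and, downward, COX17 (-1.33), the copper chaperone of complex IV. On the arrays labelled ERG these counts are 71.8% and 10.3% of the 39, near the shares of the brightest 20%. Of 18 tested regulators of mitochondrial genes, 6 (33.3%) were lower in ETV1 cells, near the share of the brightest 20%, with TFAM, which packs and transcribes mitochondrial DNA, at -0.67 and LRPPRC, which stabilises its transcripts, at -0.60. On the arrays labelled ERG 9 of them (50%) were higher, near the share of all tested genes, and 2 lower, led by SLIRP (2.15), the partner of LRPPRC, and POLG2 (1.45).

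Among 18 tested genes used as a measure of mitochondrial content, 1 was higher and 9 lower in ETV1 cells and 14 higher and none lower on the arrays labelled ERG. HSPE1, the mitochondrial co-chaperonin, read 4241, 3853 and 3093 in control and 1420.2, 1615, 1529 and 1909 in ETV1 cells (-1.19, SE 0.15, adjusted p = 2.6e-05). PHB2, a prohibitin of the inner membrane, read 6496, 6400.0 and 5460.5 in control and 2813, 3520.4, 3079 and 2809.7 in ETV1 cells, again with no overlap (adjusted p = 4.1e-05). VDAC1, the main channel of the outer membrane, had the largest rise of this list on the arrays labelled ERG (1.71). In the citric acid cycle 3 of 17 genes were higher and 4 (23.5%) lower in ETV1 cells. OGDH, which makes succinyl-CoA, was higher (1.34) and CS, citrate synthase, lower (-0.67), and 15 of the 17 were higher and 1, PC, lower on the arrays labelled ERG. Of 17 genes for electron carriers and ubiquinone synthesis 1 was higher and 5 lower in ETV1 cells, with GPD2 at -0.88, and 12 were higher and 1 lower on the arrays labelled ERG, with COQ3 at 2.02.

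Markers of other cells moved with the groups as follows. The summed intensity of 5 fibroblast markers was 972 to 1227 in control, 1116 to 1164 in ETV1 and 238 to 314 on the arrays labelled ERG, where COL1A1 and DCN, the 2 tested, were both lower. The sum of 3 endothelial markers was 1370 to 1562, 1260 to 1397 and 170 to 193, and nearly all of it was PECAM1, with VWF at 5.003 to 65.3 and CDH5 at 10.2 to 14.9 in the group means. The sum of 2 leukocyte markers was 180 to 261, 190 to 219 and 36.8 to 78.1, with PTPRC at 23.5 to 36.2 in the group means, and that of 3 striated muscle markers, of interest for the muscle isoforms of complex IV, was 53.0 to 91.2, 67.2 to 116 and 32.4 to 58.4. The sum of 4 luminal markers was 8928 to 10398, 5651 to 8218 and 11300 to 11877. Gene by gene, 1 of the 4 was lower and none higher in ETV1 cells than in control. On the arrays labelled ERG 1 was higher and 2 lower than control, with a median difference of -0.61, unlike the sum. The part of all these markers in the results on the respiratory chain was not tested.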

How the data were processed

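Total RNA of 10 RWPE-1 cultures was hybridised to HG-U133 Plus 2.0 arrays, and the authors' deposited values are linear intensity values, 1 per probe set and array, with a lowest value of 1. The steps behind them (background correction, summary, scaling) are not given in the sources used here, so no depth or detection call enters. Of 54675 probe sets, 41091 name 1 gene in the platform annotation, 1801 several and 11721 none, and 62 are control probe sets; no symbol needed an update against RefSeq, and 54 symbols had no match there. Each gene was represented by its brightest probe set over all arrays. A gene was tested if it exceeded the array median on at least 3 arrays (14045 genes). The deposited intensities were used without further scaling, as log2(intensity + 16), which understates the differences of dim genes, in 1 limma model of 3 groups (lmFit and eBayes, 7 residual degrees of freedom, two-sided, Benjamini-Hochberg adjustment over all tested genes, threshold 0.05). Tools were R 4.3.3, limma 3.58.1, Python 3.11.15, pandas 2.3.3 and matplotlib 3.10.9. The scripts' statistics were tested on simulated data.

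Genes were named by a rule: per comparison and complex, up to 3 genes each with the largest rise and fall that passed; a fixed list of well-known subunits, isoforms and cytochromes; and up to 2 passing genes per other list and comparison. Further genes are given to account for the set. The members and the lists of other genes were chosen with earlier results of these data known. Alternatives covered scaling, low-value filter, choice of probe set, model, pseudocount, threshold and each array left out. With 3 arrays against 3, an exact permutation test of 1 gene cannot go below p = 0.10, so calls come from the model across genes. The title of the series also speaks of knockdown in LNCaP and VCaP, which is not analysed here. Promoter letters were read from RefSeq windows of GRCh38.p14.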

Additional observations from a re-analysis of the deposited data

Results flagged for a closer look

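In the ETV1 group of 4 arrays, 3 of the 90 genes had 1 array far from the other ones by Dixon's ratio (the gap to the nearest array over the whole range), above the 95% critical value. Chance alone gives about 1 such group in 20. ATP5F1E, the epsilon subunit of the F1 part of ATP synthase, had a ratio of 0.877, with ETV1 array B at 9457 and the other arrays at 8616 to 8715. NDUFA11, an accessory subunit of complex I, had a ratio of 0.856, with ETV1 array D at 2012 and the other arrays at 2530 to 2629. COX6A1P1, a pseudogene locus that was not tested, had a ratio of 0.9, with ETV1 array A at 7.16 and the other arrays at 16.7 to 17.9. Neither ATP5F1E nor NDUFA11 passed in ETV1 versus control.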

How the results depend on the processing

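Counts below are genes of the set that passed, and relative medians are the set's median log2 difference less that of all tested genes (-0.28, 0.59 and 0.88 for ETV1 versus control, ERG versus control and ERG versus ETV1). After quantile normalization 5 genes were higher in ETV1 versus control, 8 lower in ERG versus control and 7 lower in ERG versus ETV1; relative medians were -0.16, 0.28 and 0.43, and for ETV1 versus control 0.018 in complex II and 0.037 in the assembly factors. Among the genes named by rule, signs then turned for NDUFA2 (-0.23), NDUFAB1 (-0.0023), NDUFV1 (-0.24), COX4I1 (-0.0084), COX4I2 (0.31) and ATP5F1B (-0.49) in ERG versus control, and for ATP5ME (-0.31), NDUFV1 (-0.14) and ATP5F1B (-0.36) in ERG versus ETV1; of other genes that passed, ATP5MC2 (-0.069) turned in the former and NDUFB10 (-0.39) and NDUFB2 (-0.041) in the latter. Centring on the median of all probe sets turned COX4I2 to 0.31 and, against ETV1, UQCRC1 to 0.069. Centring on the tested genes, added after the data had been seen, left 5 lower in ERG versus control. Centring on the brightest 20%, also added then, gave 8 higher in ETV1 versus control, 36 higher and 12 lower in ERG versus control and 12 lower in ERG versus ETV1. Under it, of the same genes, NDUFA2 (-0.27), NDUFAB1 (-0.14), UQCR11 (-0.058), UQCRQ (-0.021), ATP5MG (-0.15), ATP5MJ (-0.031), NDUFV1 (-0.28), COX4I1 (-0.20) and ATP5F1B (-0.60) turned in ERG versus control, and ATP5ME (-0.32), NDUFV1 (-0.18), COX4I1 (-0.10) and ATP5F1B (-0.43) in ERG versus ETV1. Without a filter 5 were lower in ERG versus ETV1. Above the 75th percentile relative medians were -0.23, 0.38 and 0.61, the assembly factors stood at 0.040 in ETV1 versus control, and 1 gene was lower in ERG versus control. Averaging all probe sets of a gene, relative medians were -0.22 and, for ERG versus ETV1, 0.63, complex II in ETV1 versus control stood at 0.059, 7 and 8 genes were lower against control and ETV1 on the arrays labelled ERG, NDUFA2 (-0.13) and SDHC (-0.062) turned against control, and SDHC (-0.021) against ETV1. With every probe set 6 were higher in ETV1 versus control and 19 and 20 lower on the arrays labelled ERG, against control and ETV1. With probe sets that lack the mark of several transcripts, which leave 64 genes, 16 were lower in ETV1 versus control (relative median -0.23), 39 higher and 10 lower in ERG versus control, and 41 higher and 11 lower in ERG versus ETV1. UQCR10 then stood at 0.47 in ETV1 versus control. In ERG versus control complexes II and III stood at -0.68 and -0.28, NDUFA2 at -1.24, UQCR11 at -0.15, SDHC at -1.59, UQCRB at -0.60, COX5A at -0.14 and ATP5IF1 at -1.08. In ERG versus ETV1 the same complexes stood at -0.63 and -0.50, NDUFA2 at -1.13, UQCR11 at -0.091, SDHC at -1.61, UQCR10 at -0.40, UQCRB at -0.35, ATP5PD at -0.080 and ATP5IF1 at -0.96. Array weights gave 7 higher and 63 lower in ETV1 versus control and 5 lower in ERG versus control; their gene-by-gene method was taken after the default had not converged and its calls had been seen. At a threshold of 0.01, 1 was higher and 19 lower in ETV1 versus control. Leaving out each array in turn, the ETV1 arrays had 2 to 3 genes higher and 16 to 52 lower than control (relative median -0.33 to -0.24, assembly factors -0.054 to 0.0037); ERG versus control had 71 to 74 higher and 2 to 3 lower (0.55 to 0.78), and ERG versus ETV1 75 to 78 higher and 2 to 4 lower (0.84 to 1.07). Where a left-out array or a different probe set changes a call, the cause was not tested.

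The arrays of different groups share letters, and deviations of same-letter arrays from their group means correlated at -0.094 to 0.089, so the letters were not taken as pairs. With the replicate block, 3 genes were higher and 28 lower in ETV1 versus control, 74 and 2 in ERG versus control, and 76 and 2 in ERG versus ETV1, and the assembly factors' relative median in ETV1 versus control was 0.0037; UQCRQ (-0.31) lost its call and NDUFA7 (0.49) gained one in ETV1 versus control, and UQCRC1 (-0.33) lost its call in ERG versus ETV1.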
